A study of Mus musculus with 9 samples.

Results

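A group of 10 receptor and adaptor genes of myeloid cells was followed through a mouse model of retinal vein occlusion (RVO). They were the C-type lectin receptors Clec4d, Clec4e, Clec4n and Clec7a, the receptors Siglec15, Tarm1, Trem1 and Trem2, and the signalling adaptors Tyrobp and Fcer1g. They are 10 of the 48587 mouse genes counted, were picked by symbol, and all 10 were found. The members were chosen from results of these same samples, so their levels, fold changes and calls are given as a description and not as independent evidence.

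The 9 libraries each held RNA from 6 pooled retinas of C57BL/6J mice aged 12 weeks. In 3 pools (RVO) every large vein of the eye had been closed by a laser after injection of the photosensitizer eosin Y at 200 mg/kg, and in 3 pools (control laser-treated) the fellow eye had received the same number of laser spots in areas between the large vessels, so these eyes share the eosin Y and the laser injury but not the closed veins. Both were taken on day 2 after the laser, which was set to 50 mW, a spot of 50 µm and 2.5 s. The 3 untreated pools came from mice without laser treatment. A pool averages its animals, the control laser-treated eye is the partner of an occluded eye in the same animal, and no source used here says whether pools with the same number hold the same mice.

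Myeloid cells such as neutrophils, monocytes, macrophages and microglia read damage and microbes with these receptors. Clec4e (Mincle), Clec4d and Clec4n bind glycolipids, mannans or material of dead cells, have no signalling tail of their own and use the adaptor encoded by Fcer1g. Siglec15, Trem1 and Trem2 use the adaptor encoded by Tyrobp (DAP12), and both adaptors carry an immunoreceptor tyrosine-based activation motif (ITAM) that recruits the kinase Syk. In the healthy retina the resident myeloid cells are microglia, in which Trem2 and Tyrobp are expressed, while neutrophils and monocytes stay in the blood.

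The depth was 12377572 to 15245869 counts per untreated pool, 18897218 to 23419497 per control laser-treated pool and 21022997 to 28993921 per RVO pool. Levels are given as normalised CPM, the counts of a gene per 1000000 counts of its pool after scaling with factors computed over the 9 pools, and errors are the SD of 3 pools. A count of 0 in an untreated pool allows a level of up to 0.210 to 0.268 CPM, taking 3 counts as the limit, and this covers counting error only. Markers of leukocytes moved with the groups. The summed level of 7 genes shared by all leukocytes ran from 25.1 to 38.4 CPM in untreated pools, from 53.3 to 68.9 in control laser-treated pools and from 86.2 to 102 in RVO pools. In whole retina, more cells of a type and more RNA of a gene per cell cannot be told apart. Rod genes, the main transcripts of photoreceptors, summed to 81540 to 83560 CPM in untreated, 53780 to 65880 in control laser-treated and 43710 to 47970 CPM in RVO pools. Lens genes, from tissue that can adhere to a dissected retina, summed to 3956 CPM in RVO pool 2 and to 2059 in control laser-treated pool 1, against 135 to 335 in the other laser-treated pools and 2.10 to 18.0 in the untreated pools.

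Clec4n, Clec4d and Clec4e lie next to each other on chromosome 6 (GRCm38, GENCODE vM21). Clec4n spans chr6:123229843-123247021 on the plus strand, Clec4d chr6:123262111-123275265 on the plus strand and Clec4e chr6:123281789-123289870 on the minus strand, with 15090 bases between Clec4n and Clec4d and 6524 between Clec4d and Clec4e. Clec7a lies farther along the same chromosome at chr6:129461591-129472779 and is annotated as a polymorphic pseudogene in this release. Trem1 (chr17:48232768-48246924) and Trem2 (chr17:48346401-48354147) sit 99477 bases apart on the plus strand of chromosome 17, with Trem3, Treml4 and Treml2 between them. Tarm1 is at chr7:3486500-3502624, Tyrobp at chr7:30413760-30417585 and Fcer1g at chr1:171229572-171234365. Each value below is the sum over all annotated exons of a gene. Tarm1 overlaps Gm44165 on its own strand and Trem1 overlaps AC241601.2 on the opposite strand, and since the strand setting of the counting was not given in the sources used here, reads of these pairs may not be separated.

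The bases before the start site are shown for 2 pairs. Clec4d and Clec4e are neighbours and rose together, and Trem1 and Trem2, of one gene cluster but not adjacent, did not. Each line gives the 250 bases before the RefSeq start site (GRCm38.p6), 5′ to 3′ on the strand of the gene, and capitals mark matches to any of 5 letter patterns on either strand: GAGGAAG (PU.1-like), TGACTCA (AP-1), TTGCNNAA (C/EBP-like), GGANTTTCC (NF-kB-like) and TATAAA, which is called the TATA box. The windows are chr6:123261857-123262106 (plus strand) for Clec4d, chr6:123289872-123290121 (minus strand) for Clec4e, chr17:48232489-48232738 (plus strand) for Trem1 and chr17:48346151-48346400 (plus strand) for Trem2.
Clec4d: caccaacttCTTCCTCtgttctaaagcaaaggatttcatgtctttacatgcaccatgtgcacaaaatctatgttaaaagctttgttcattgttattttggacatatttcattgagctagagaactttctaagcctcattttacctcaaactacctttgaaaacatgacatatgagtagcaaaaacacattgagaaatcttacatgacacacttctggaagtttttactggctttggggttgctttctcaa
Clec4e: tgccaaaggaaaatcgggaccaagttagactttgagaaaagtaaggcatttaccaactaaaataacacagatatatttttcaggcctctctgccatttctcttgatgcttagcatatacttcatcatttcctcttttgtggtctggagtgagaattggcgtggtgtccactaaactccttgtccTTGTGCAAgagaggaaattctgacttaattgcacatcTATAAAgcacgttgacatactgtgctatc
Trem1: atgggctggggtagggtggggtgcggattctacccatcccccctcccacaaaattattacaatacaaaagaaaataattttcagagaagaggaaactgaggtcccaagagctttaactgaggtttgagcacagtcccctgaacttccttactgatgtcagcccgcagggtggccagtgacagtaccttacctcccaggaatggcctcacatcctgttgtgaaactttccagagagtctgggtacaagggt
Trem2: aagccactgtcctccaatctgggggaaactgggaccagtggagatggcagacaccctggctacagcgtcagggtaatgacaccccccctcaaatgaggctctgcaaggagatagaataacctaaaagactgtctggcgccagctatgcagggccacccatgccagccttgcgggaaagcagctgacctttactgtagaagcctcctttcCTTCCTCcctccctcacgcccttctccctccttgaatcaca
The Clec4d window held a PU.1-like match that began 241 bases before the start site. The Clec4e window held a C/EBP-like match that began 66 bases before the start and a TATA box that began 29 bases before it. The Trem2 window held a PU.1-like match that began 41 bases before the start, and the Trem1 window held none of the 5 patterns. Over 27025 promoters of the same length, 10.4% held the PU.1-like pattern, 4.43% the AP-1 pattern, 9.55% the C/EBP-like pattern, 1.05% the NF-kB-like pattern and 13% the TATA box. Of the 7 members with a promoter entry, 2 held the PU.1-like pattern, 2 the TATA box, 1 the C/EBP-like pattern and 0 the AP-1 or the NF-kB-like pattern. A match is a run of letters and not a shown binding site. No sequence was at hand here for Clec4n, Tyrobp and Siglec15.

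Clec4d, Clec4e and Clec4n were not detected in untreated retina, were present in control laser-treated retina and were highest after RVO. Clec4d, the partner of Mincle in one receptor complex, had 0 counts in each untreated pool. It measured 1.41, 2.03 and 0.676 CPM in control laser-treated pools 1 to 3, and 8.90, 4.34 and 9.05 CPM in RVO pools 1 to 3. Every RVO pool was above every control laser-treated pool. The mean in RVO eyes was 7.43 ± 2.68 CPM (n = 3), at least 31.5-fold higher than in untreated eyes, and in control laser-treated eyes 1.37 ± 0.68 CPM, at least 5.82-fold higher than in untreated eyes.

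Clec4e, which encodes Mincle, showed the same order at a lower level. It was at 0 counts in the untreated pools, at 0.821, 1.32 and 0.380 CPM in the control laser-treated pools and at 3.77, 2.19 and 3.90 CPM in the RVO pools. The RVO level was at least 13.9-fold and the control laser-treated level at least 3.56-fold above the untreated one. Within a pool the counts of Clec4d and Clec4e kept a narrow ratio, 1.54 to 1.78 Clec4d counts per Clec4e count in control laser-treated pools and 1.98 to 2.36 in RVO pools, while both genes varied more than 10-fold in level across these 6 pools. The values of this ratio did not overlap between the groups.

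Clec4n, which encodes the mannan receptor Dectin-2, was at 0 counts in the untreated pools as well. It reached 1.64, 1.27 and 0.887 CPM in the control laser-treated pools and 6.68, 3.48 and 8.47 CPM in the RVO pools. These groups did not overlap either, and the mean of 6.21 ± 2.53 CPM in RVO eyes was at least 26.3-fold above the untreated level. The control laser-treated mean of 1.27 ± 0.38 CPM was at least 5.36-fold above it.

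Clec7a encodes Dectin-1, a beta-glucan receptor that binds Syk through its own tail without an adaptor. It was the only C-type lectin of the 4 with counts in untreated retina, at 1.25, 0.688 and 1.05 CPM. It measured 2.97, 5.23 and 2.96 CPM in control laser-treated pools and 7.84, 6.70 and 8.43 CPM in RVO pools. The 3 groups did not overlap. The fold change was 7.64 in RVO against untreated eyes (log2 2.93, SE 0.24) and 3.67 in control laser-treated against untreated eyes (log2 1.87, SE 0.32).

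**Figure D1:**
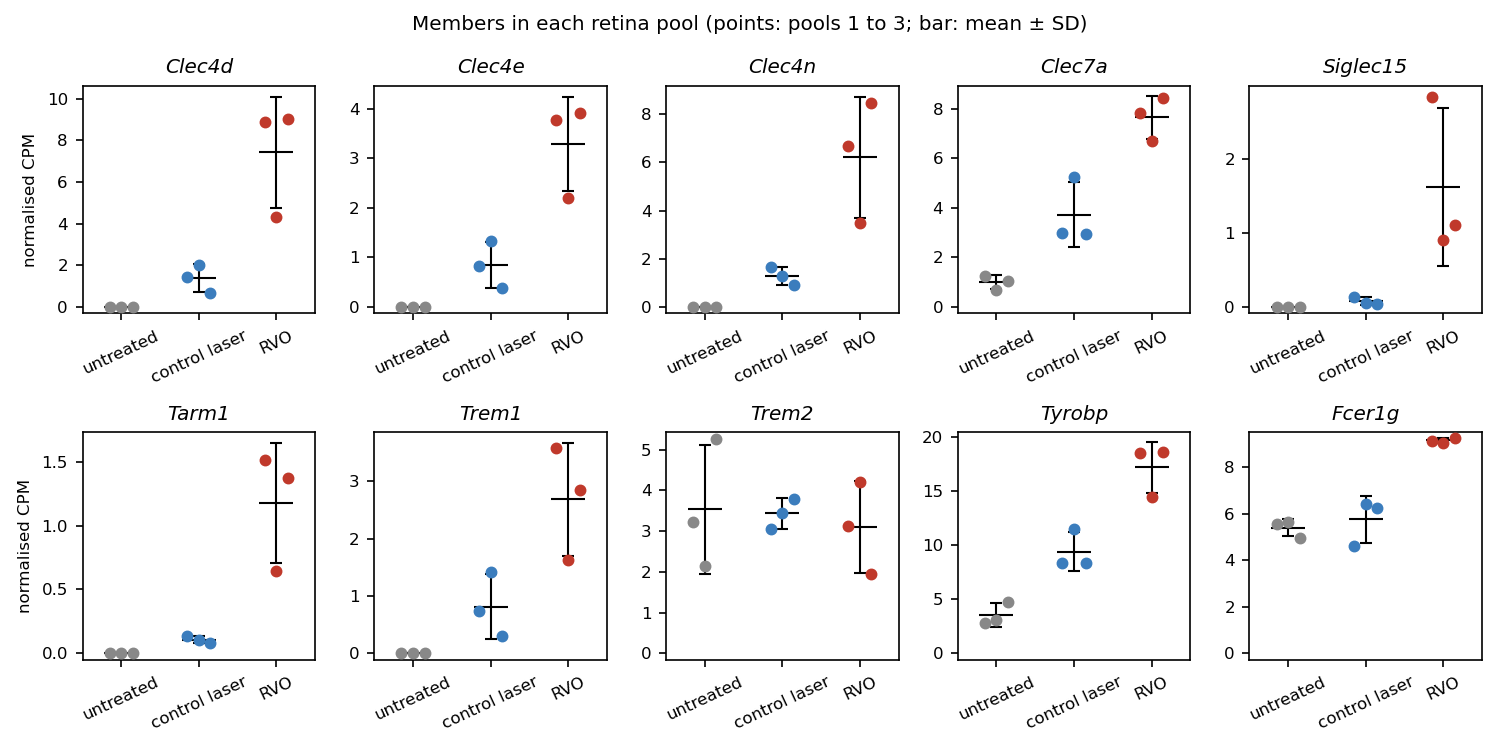
Normalised CPM (y axis, from 0) of each of the 10 members in untreated, control laser-treated and RVO retina (x axis). Points are pools 1 to 3 from left to right and bars are the mean ± SD. There, 6 members lie at 0 in every untreated pool, and Trem2 has a similar range in all 3 groups, with 2.14 to 5.26 CPM in untreated and 1.95 to 4.21 CPM in RVO pools.

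Siglec15 and Tarm1 had at most 3 counts in any pool outside the RVO eyes. Siglec15, a sialic acid-binding lectin of macrophages and osteoclasts, had 0 counts in the untreated pools, 3, 1 and 1 counts in the control laser-treated pools and 88, 21 and 25 counts in the RVO pools. RVO pool 1 alone held 2.84 CPM, against 0.902 and 1.11 CPM in the other 2. The RVO level was 22.8 times the control laser-treated level (95% counting interval 9.52 to 71.3), and at least 6.85-fold above the untreated level, a bound of 4.26-fold without RVO pool 1. Tarm1, an activating receptor of neutrophils and other myeloid cells, had 3, 2 and 2 counts in control laser-treated and 47, 15 and 31 counts in RVO pools, after 0 in the untreated pools. Its RVO level was 11.3 times the control laser-treated level (95% counting interval 5.27 to 28.9) and at least 4.99-fold above the untreated level. No fold is given for either gene between control laser-treated and untreated eyes, because no pool there exceeded 3 counts.

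Trem1 and Trem2 share a gene cluster and an adaptor but not a pattern. Trem1, a receptor of neutrophils and monocytes that amplifies inflammatory signals, was at 0 counts in untreated pools, at 0.730, 1.42 and 0.296 CPM in control laser-treated pools and at 3.58, 1.63 and 2.84 CPM in RVO pools. The groups did not overlap, although the lowest RVO pool and the highest control laser-treated pool lay close together. The RVO level was at least 11.4-fold and the control laser-treated level at least 3.46-fold above the untreated one, the latter a bound of 2.17-fold without control laser-treated pool 2. Trem2, a lipid-sensing receptor of microglia and macrophages, measured 3.22, 2.14 and 5.26 CPM in untreated, 3.06, 3.45 and 3.80 CPM in control laser-treated and 3.13, 4.21 and 1.95 CPM in RVO pools. All 3 groups overlapped, and the log2 fold change was -0.21 (SE 0.37) in RVO against untreated, -0.08 (SE 0.26) in control laser-treated against untreated and -0.15 (SE 0.27) in RVO against control laser-treated eyes. Leaving out single pools changed the sign of each of these 3 values, so no direction is given for Trem2. Trem1 counts were 0 per Trem2 count in untreated pools, 0.0778 to 0.412 in control laser-treated pools and 0.388 to 1.45 in RVO pools.

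Trem2 did not pass the test in any comparison, while P2ry12 and Tmem119, a pair of microglial genes, fell. P2ry12, the purinergic receptor of resting microglia, went from 19.8 ± 6.0 CPM in untreated to 2.45 ± 0.10 in control laser-treated and 0.819 ± 0.408 CPM in RVO eyes, a log2 change of -3.04 (SE 0.21) and -4.62 (SE 0.35) against untreated eyes. Tmem119, another microglial surface marker, went from 13.8 ± 2.7 through 3.77 ± 0.27 to 1.58 ± 0.62 CPM. Of the 9 microglial genes, all tested, 4 fell after RVO (P2ry12, Tmem119, Siglech and Gpr34), 1 rose (Sparc) and 4 were not called (Sall1, Cx3cr1, Fcrls and Olfml3), beside 24.6% of all genes called lower. Among those not called, Sall1, Cx3cr1 and Fcrls were lower in every RVO pool than in any untreated pool (edgeR adjusted p = 0.0518, 0.0148 and 0.0172). Olfml3 overlapped. In control laser-treated against untreated eyes 5 fell, 1 rose and 3 were not called, beside 25.2% of all genes called lower. Trem2 counts per P2ry12 count therefore ran from 0.153 to 0.203 in untreated pools, from 1.20 to 1.61 in control laser-treated pools and from 3.14 to 5.71 in RVO pools, with no overlap. Per count of Cx3cr1, which is expressed by microglia and monocytes, the ranges were 0.237 to 0.316 in untreated and 0.265 to 0.377 in control laser-treated pools, which overlapped, and 0.489 to 1.14 in RVO pools. Per count of Sall1, a transcription factor of microglia, the ranges of all 3 groups overlapped, at 0.875 to 2.34 in untreated, 1.26 to 2.5 in control laser-treated and 2.0 to 3.03 in RVO pools. Untreated pool 3 and RVO pool 2 had the highest Trem2 level of their groups and also the highest levels of P2ry12, Tmem119 and Cx3cr1. Control laser-treated pool 3, with the highest Trem2 level of its group, had the lowest levels of P2ry12 (2.37 CPM) and Cx3cr1 (10.1 CPM) there. Tmem119 was narrowly highest in that pool, at 3.929 CPM against 3.923 and 3.452 CPM in control laser-treated pools 1 and 2. The summed level of the 9 microglial genes is no measure of this, since Sparc, which other retinal cells express too, gave 223 CPM on average in untreated eyes, where the sum was 285 to 350 CPM.

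**Figure D2:**
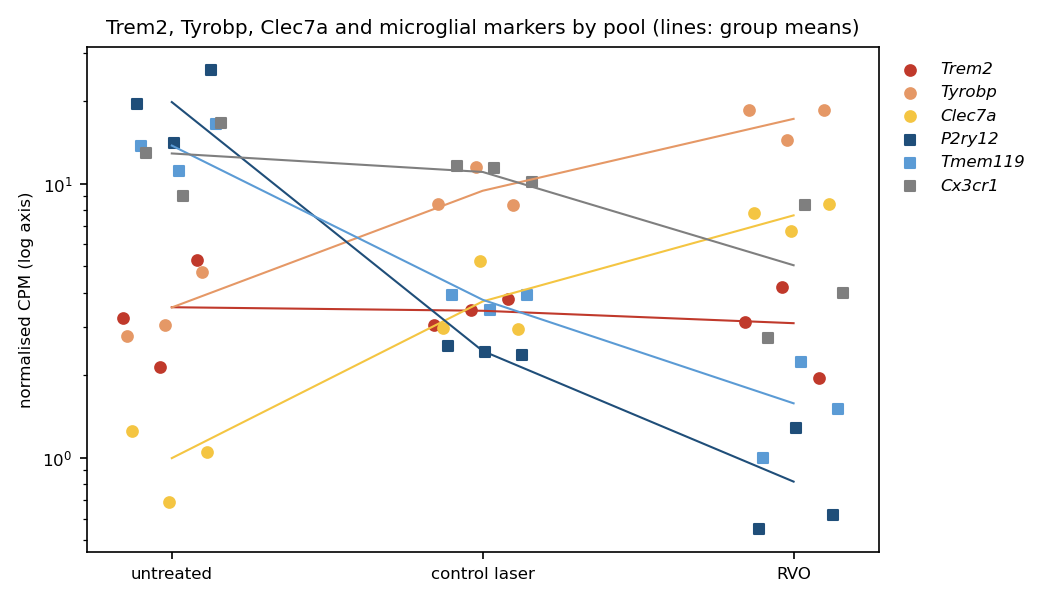
Normalised CPM on a log axis of the members Trem2, Tyrobp and Clec7a (circles) and of the microglial genes P2ry12, Tmem119 and Cx3cr1 (squares) in each pool, with lines through the group means. The Trem2 means stay between 3.10 and 3.54 CPM while P2ry12 falls from 19.8 to 0.819 CPM and Tyrobp climbs from 3.53 to 17.2 CPM.

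The adaptors were present in every pool. Tyrobp, the DAP12 adaptor, measured 2.77, 3.06 and 4.77 CPM in untreated, 8.39, 11.5 and 8.32 CPM in control laser-treated and 18.6, 14.5 and 18.6 CPM in RVO pools. The 3 groups did not overlap, and the fold change against untreated eyes was 2.58 (log2 1.37, SE 0.21) for control laser-treated and 4.79 (log2 2.26, SE 0.22) for RVO eyes. Fcer1g, the common gamma chain of Fc receptors, measured 5.55, 5.66 and 4.98 CPM in untreated, 4.61, 6.45 and 6.25 CPM in control laser-treated and 9.16, 9.06 and 9.27 CPM in RVO pools. Its untreated and control laser-treated pools overlapped (log2 0.08, SE 0.16), and its RVO pools stood above both, 1.69-fold above untreated eyes (log2 0.76, SE 0.14). The balance of the adaptors shifted accordingly, from 0.500 to 0.958 Tyrobp counts per Fcer1g count in untreated pools to 1.33 to 1.82 in control laser-treated and 1.60 to 2.03 in RVO pools, of which the last 2 overlapped.

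Levels of different genes were compared per kilobase of annotated exons. In RVO eyes Tyrobp came first at 25.8 ± 3.6 CPM per kilobase, then Fcer1g at 10.5 ± 0.1, Clec4d at 4.65 ± 1.68, Clec4n at 4.37 ± 1.78 and Clec7a at 2.90 ± 0.33. Siglec15 at 1.40 ± 0.92, Trem1 at 0.896 ± 0.328, Clec4e at 0.662 ± 0.192, Trem2 at 0.626 ± 0.228 and Tarm1 at 0.570 ± 0.227 CPM per kilobase followed. The steps from Tyrobp to Fcer1g, from Fcer1g to Clec4d and from Clec7a to Siglec15 exceeded the summed SDs, and Clec4d, Clec4n and Clec7a did not differ beyond their spread, nor did the last 5 genes. The order depends on the length taken. With the longest transcript of the consensus coding set, Clec7a was at 10.8 ± 1.2 and Trem2 at 2.85 ± 1.04 CPM per kilobase, since annotated exons of both span several times that transcript, while Tyrobp, Fcer1g and Tarm1 kept the first, second and last place. In untreated eyes only Fcer1g (6.17 ± 0.42), Tyrobp (5.30 ± 1.62), Trem2 (0.716 ± 0.320) and Clec7a (0.378 ± 0.108 CPM per kilobase) were detected, and the first 2 did not differ beyond their spread.

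The members were then set against all genes with edgeR's quasi-likelihood test, at a Benjamini-Hochberg adjusted p under 0.01. In RVO against untreated eyes all 10 members passed the filter on low counts and 9 were called higher, all except Trem2, where 27.4% of 16380 genes were called higher and 24.6% lower. The same 9 did not overlap between the groups, as did 37.8% of all genes in that direction. The call of Siglec15 was lost when untreated pool 1 (adjusted p = 0.0104) or 3 (adjusted p = 0.0114) was left out. With the 6 undetected genes set at their lower bounds, the median log2 fold change of the members was 2.85, against 0.01 over all genes. Of these 10, 6 passed the filter through the RVO pools alone, so the counts say nothing beyond the choice of members.

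In control laser-treated against untreated eyes, 6 members passed the filter and 4 were called higher, Clec4d, Clec4n, Clec7a and Tyrobp. Of 16066 genes tested, 27.2% were called higher and 25.2% lower. The same 4 members did not overlap between the groups, as did 36.8% of all genes in that direction. Trem2 and Fcer1g were tested and not called (adjusted p = 0.811 and 0.684 by edgeR), and Clec4e, Trem1, Siglec15 and Tarm1 were too low to be tested.

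RVO and control laser-treated eyes, which differ in the closed veins, were separated by fewer calls. All 10 members were tested and 1, Tarm1, was called higher (log2 fold change 3.41, SE 0.50, edgeR adjusted p = 0.00928), where 2.7% of 16874 genes were called higher and 0.634% lower. At an adjusted p under 0.05, 9 members were called higher, all except Trem2, beside 17.5% of all genes, and the same 9 did not overlap between the groups, as did 27.3% of all genes. The log2 fold changes were 4.35 (SE 0.73) for Siglec15, 2.45 (SE 0.43) for Clec4d, 2.29 (SE 0.38) for Clec4n, 1.99 (SE 0.42) for Clec4e, 1.76 (SE 0.51) for Trem1, 1.05 (SE 0.25) for Clec7a, 0.87 (SE 0.17) for Tyrobp and 0.67 (SE 0.16) for Fcer1g, with edgeR adjusted p values between 0.0104 and 0.0333. The log2 value of Siglec15 was 3.61 without RVO pool 1 and 5.01 without control laser-treated pool 1, and that of Trem1 was 2.40 without control laser-treated pool 2. A single pool decided the count at 0.01. Without RVO pool 2, the pool with the most lens RNA, 9 members were called, and without any 1 of the other 5 pools 0 were called by edgeR, with 9 at an unadjusted p under 0.05 each time. Over all genes, calls in both directions went from 563 with all pools to 6257 without RVO pool 2. Without any 1 of the other 5 pools they numbered 0 to 29. DESeq2 called 9. RVO pool 2 was the lowest RVO pool for 9 of 10 members, from 0.446 times the mean of the other 2 for Tarm1 to 0.983 times for Fcer1g, and the highest for Trem2, at 1.66 times.

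**Figure D3:**
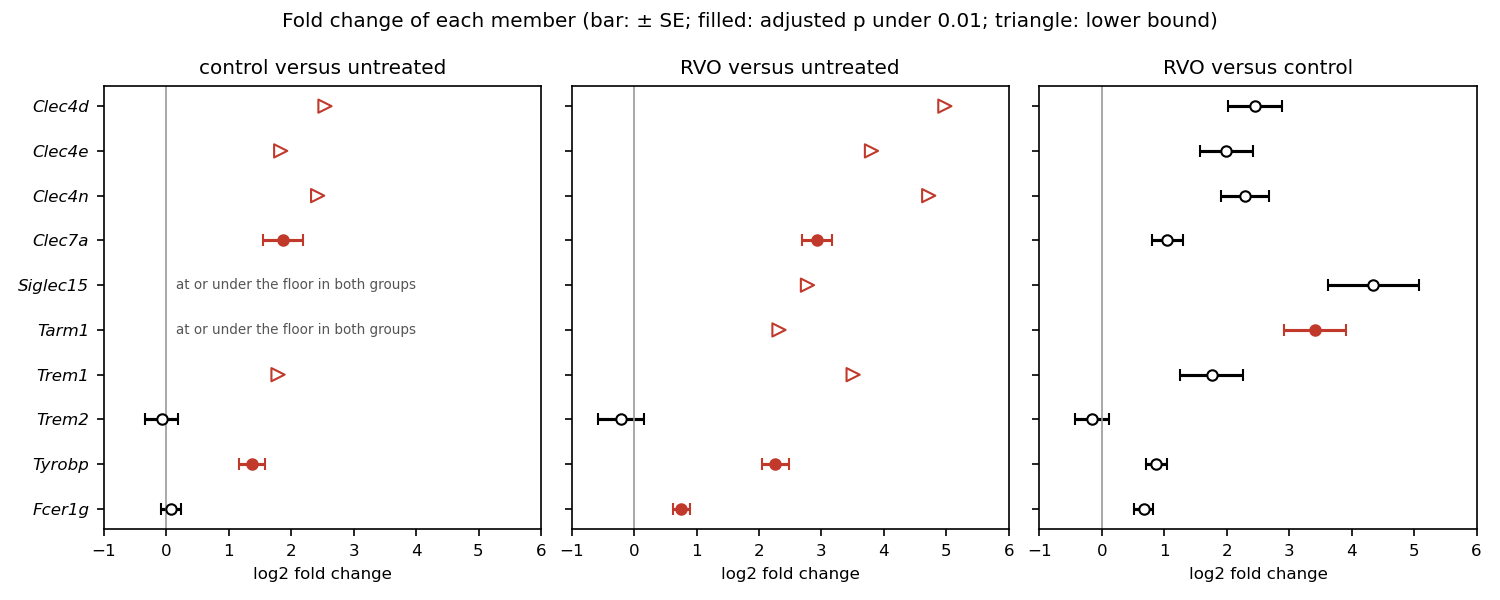
Log2 fold change (x axis) of each member in the 3 comparisons, with bars of ± SE and filled circles for an adjusted p under 0.01. Triangles mark lower bounds, tested or not, for genes at 0 counts in every untreated pool. Trem2 lies near 0 in each panel, and Siglec15 (4.35) and Tarm1 (3.41) lie farthest to the right in RVO against control laser-treated eyes.

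Relative to leukocyte RNA the members fell into separate patterns. Counts of each member were divided by the summed counts of the 7 pan-leukocyte genes of the same pool, Ptprc, Laptm5, Coro1a, Lcp1, Itgb2, Cd53 and Rac2. Per 100 of these counts, Clec4d went from 2.23 ± 0.86 in control laser-treated to 7.54 ± 2.17 in RVO eyes, Clec4n from 2.12 ± 0.64 to 6.29 ± 2.13 and Siglec15 from 0.130 ± 0.093 to 1.64 ± 0.99, without overlap. Clec7a went from 3.21 ± 0.81 in untreated through 6.10 ± 1.31 to 7.90 ± 0.29, and Tyrobp from 11.3 ± 1.8 through 15.7 ± 1.1 to 17.7 ± 0.8. Trem2 and Fcer1g moved the other way. Trem2 went from 11.0 ± 2.6 in untreated through 5.82 ± 1.15 to 3.29 ± 1.5, and Fcer1g from 18.0 ± 4.8 to 9.70 ± 1.88 in control laser-treated and 9.52 ± 0.86 in RVO eyes, the last 2 of which overlapped. Clec4e went from 1.35 ± 0.61 in control laser-treated to 3.35 ± 0.71 in RVO eyes and Tarm1 from 0.181 ± 0.050 to 1.19 ± 0.39, without overlap. Trem1 went from 1.30 ± 0.75 to 2.73 ± 0.81, and its pools overlapped. No test was run on these ratios.

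**Figure D4:**
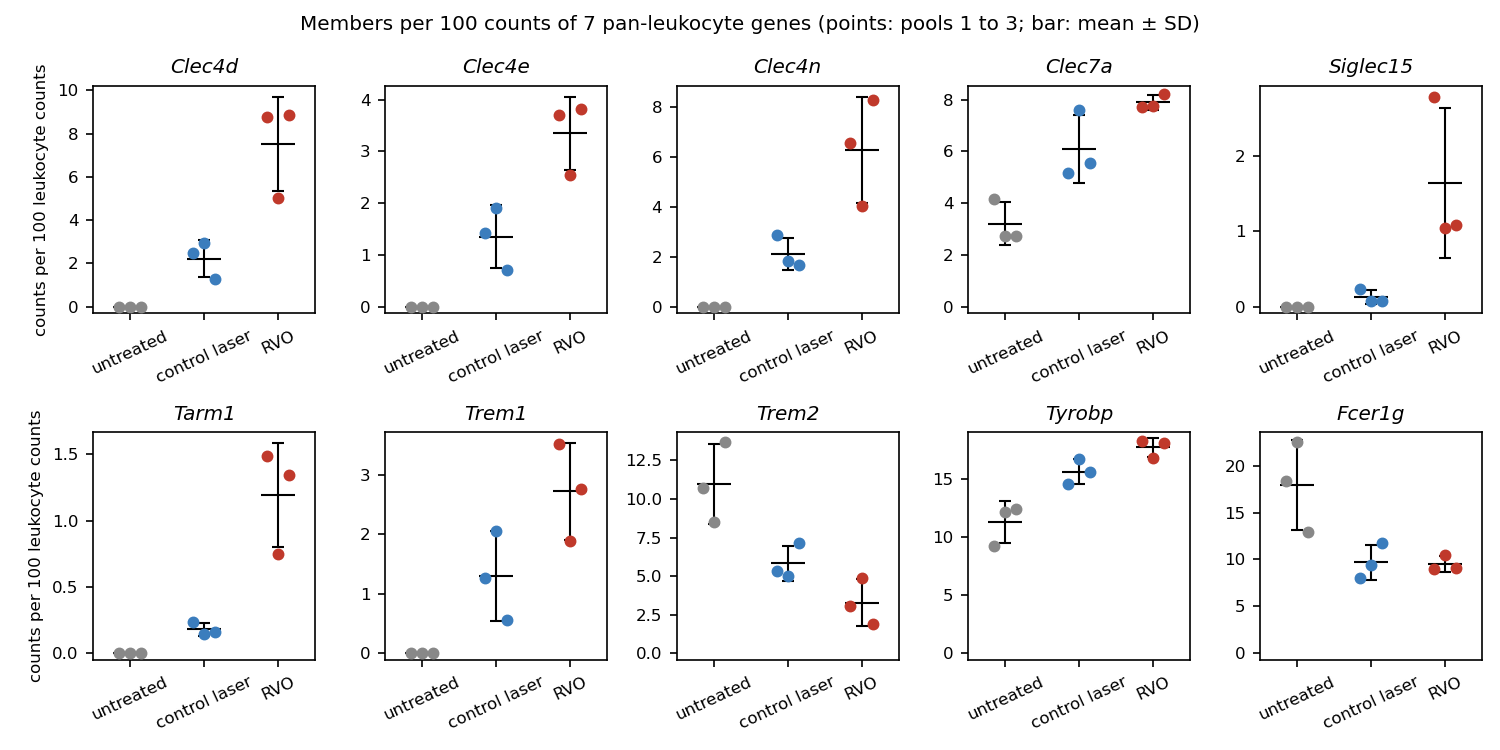
Counts of each member per 100 counts of 7 pan-leukocyte genes in the same pool (y axis, from 0), by group (x axis). Points are pools 1 to 3 from left to right and bars are the mean ± SD. Trem2 and Fcer1g are highest in untreated pools, at 11.0 and 18.0 on average, and the other 8 members have their highest mean in RVO pools. Trem1 overlaps there, with control laser-treated pool 2 at 2.06 and RVO pool 2 at 1.89.

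Summed neutrophil and monocyte markers were higher in control laser-treated than in untreated pools and highest in RVO pools. The 10 neutrophil genes summed to 0.535 to 1.61 CPM in untreated, 9.46 to 25.4 in control laser-treated and 48.8 to 108 CPM in RVO pools, with Cxcr2, Retnlg, Ly6g, Mmp8, Mpo and Elane at 0 in untreated eyes, and 6 could be tested in RVO against untreated eyes. All of these 6 were called higher, but Cxcr2 and Mmp8 had 0 counts and S100a8 and S100a9 at most 3 counts in each untreated pool, so that they passed the filter through the RVO pools and their calls are no count of support. The 10 monocyte and macrophage genes summed to 12.4 to 14.9, 46.3 to 64.6 and 113 to 139 CPM. Ly6c2 and Chil3 were at 0 in untreated eyes, and Ccr2 had 0, 1 and 0 counts there. Of the 10, 8 were called higher after RVO, beside 27.4% of all genes. Ly6c2, Chil3 and Ccr2 are among these 8 but passed the filter through the RVO pools, so their calls are no count of support. The 6 lymphocyte genes summed to 0.491 to 1.16 CPM in untreated, 0.887 to 1.12 in control laser-treated and 1.29 to 1.60 CPM in RVO pools, so the RVO pools lay above the others. None of these genes had enough counts to be tested against untreated eyes, and 1 was tested and not called in RVO against control laser-treated eyes. The 6 mast cell and basophil genes summed to 0.765 to 1.26, 0.730 to 1.93 and 1.03 to 1.16 CPM, which overlapped. The 5 platelet genes summed to 6.04 to 7.43, 15.8 to 19.1 and 19.2 to 22.5 CPM and the 5 dendritic cell genes, which include Siglech, to 14.3 to 19.8, 11.8 to 12.6 and 7.10 to 10.1 CPM in untreated, control laser-treated and RVO pools.

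Per 100 neutrophil-marker counts, Clec4e, Clec4n, Trem1 and Clec7a had overlapping levels in control laser-treated and RVO pools. Clec4e ran from 3.36 to 5.19 over these 6 pools, with means of 4.19 and 3.91. Clec4n ran from 4.99 to 9.38 with means of 7.03 and 7.13, and Trem1 from 2.62 to 5.59 with means of 3.90 and 3.14. Clec7a was at 12.1 to 31.2 in control laser-treated and at 7.56 to 13.7 in RVO pools. Trem2, Tyrobp and Fcer1g were lower in RVO pools without overlap. Trem2 was at 12.5 to 40.2 against 1.8 to 8.63, Tyrobp at 34.3 to 87.9 against 17.2 to 29.7 and Fcer1g at 18.8 to 66.1 against 8.56 to 18.6. Clec4d was at 5.78 to 7.98 in control laser-treated and at 8.36 to 8.90 in RVO pools, without overlap. Siglec15 and Tarm1 did not overlap either, Siglec15 at 0.200 to 0.560 against 1.02 to 2.74 and Tarm1 at 0.399 to 0.893 against 1.27 to 1.46. Their control laser-treated values rest on at most 3 counts per pool, so counting error is large there. Per 100 counts of the monocyte and macrophage genes, Clec7a overlapped in all 3 groups. It was at 5.56 to 9.27 in untreated, 5.90 to 8.09 in control laser-treated and 5.93 to 6.58 in RVO pools. By that measure Clec4e, Clec4n and Trem1 also overlapped between control laser-treated and RVO pools. Clec4e was at 0.822 to 2.04 against 1.94 to 3.17. Clec4n was at 1.92 to 3.27 against 3.08 to 6.09, and Trem1 at 0.639 to 2.2 against 1.44 to 3.01. The means went from 1.5 to 2.64 for Clec4e, from 2.38 to 4.93 for Clec4n and from 1.43 to 2.16 for Trem1. Clec4d, Siglec15 and Tarm1 were higher in RVO pools without overlap, Clec4d at 1.46 to 3.14 against 3.84 to 7.47. Trem2, Tyrobp and Fcer1g were lower in RVO pools without overlap, Tyrobp at 16.7 to 18 against 12.8 to 15.6. The overlaps do not tie a member to either cell type. The part of cell numbers in the members' levels was not tested.

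The genes whose level across the 9 pools was most like each member were sought among 17174 genes. These are Pearson correlations of log2 CPM across pools that fall into 3 groups, and they are a description. Clec4d and Clec4e had Cxcr2, the chemokine receptor of neutrophils, and Lcp1, a leukocyte actin-bundling protein, among their 3 closest genes (r between 0.997 and 0.998). The nearest genes to Clec4n were Acod1, the itaconate-producing enzyme of activated macrophages (r = 0.998), the chemokine Ccl6 and Tpcn2. Clec7a was nearest to Rac2 (r = 0.998), Skap2 and the granulocyte colony-stimulating factor receptor Csf3r. Siglec15 was nearest to Eif2ak3 (r = 0.995), Peak1 and Lonp1, Tarm1 to Cmtm6 (r = 0.995), Lrrfip1 and Tpm4, and Trem1 to Acot2 (r = 0.997), Il6st and Orai1. Tyrobp was nearest to Maea (r = 0.999), Ftl1 and Tmed2, and Fcer1g to Ttc12 (r = 0.976), AI662270 and Eif4e3. The closest gene to Trem2 was Tmod1, at r = 0.868, the lowest of the 10 closest matches.

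The wider pathway was described with 121 further genes in 9 lists, which were also drawn up with earlier results known. Of 86 that could be tested in RVO against untreated eyes, 61 were higher and 6 lower, beside 27.4% and 24.6% of all genes. Of 78 tested in control laser-treated against untreated eyes, 46 were higher and 3 lower, beside 27.2% and 25.2%. Of 90 tested in RVO against control laser-treated eyes, 11 were higher and 0 lower, beside 2.7% and 0.634%. The median log2 fold change of the tested genes was 1.65, 0.86 and 0.71 in these comparisons, against 0.01, 0.01 and 0.02 over all genes. Ratios with a counting interval are given where an untreated pool held at most 3 counts of a gene. Several genes had at most 3 counts in each untreated pool and passed the filter through the laser-treated pools. Their calls against untreated eyes enter the totals above and are no count of support.

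Among other C-type lectin receptors, 5 of 8 tested rose after RVO and 0 fell, beside 27.4% and 24.6% of all genes. Clec5a, a Tyrobp-linked receptor of monocytes and neutrophils, rose 6.05-fold in RVO (log2 2.60, SE 0.32) and had 10, 9 and 11 counts in untreated, 27, 36 and 33 in control laser-treated and 187, 74 and 115 in RVO pools. Clec4a1, next in fold, rose 3.70 times (95% counting interval 1.76 to 8.96), a call lost without untreated pool 1 or 3 (adjusted p = 0.010 and 0.0104). In control laser-treated eyes 2 of 6 rose, Clec2d 4.09-fold and the mannose receptor Mrc1 2.34-fold, a share near the 27.2% of all genes. The call of Mrc1 was lost without any 1 of the 6 pools (adjusted p between 0.0137 and 0.0445).

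Of 5 other Siglecs tested, 1 rose and 1 fell in either comparison with untreated eyes. Of all genes, 27.4% rose and 24.6% fell after RVO, and 27.2% and 25.2% in control laser-treated eyes. The counts of Siglecs are near these shares. Siglec1, the sialoadhesin of macrophages, had 0, 0 and 2 counts in untreated, 25, 21 and 17 in control laser-treated and 84, 37 and 60 in RVO pools, 45.4 times the untreated level after RVO (95% counting interval 12.4 to 377). Siglech, a Tyrobp-linked lectin of microglia, fell 16.7-fold after RVO (log2 -4.06, SE 0.51) and 3.88-fold in control laser-treated eyes (log2 -1.96, SE 0.29).

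Of 12 tested receptors of the TREM, CD300, LILR and SIRP families, 8 rose and 2 fell after RVO, beside 27.4% and 24.6% of all genes. Of these 8, Treml2, Pirb, Lilrb4a, Lilr4b, Cd300lb and Cd300ld had at most 3 counts in each untreated pool. They passed the filter through the RVO pools, so their calls are no count of support. Lilr4b and Lilrb4a, of which the latter encodes an inhibitory receptor of myeloid cells, led the list. Lilr4b had 0, 0 and 1 counts in untreated, 41, 35 and 24 in control laser-treated and 179, 63 and 113 in RVO pools. Lilrb4a had 0, 3 and 1, then 57, 49 and 44, then 250, 120 and 193 counts, and was the only receptor of this list called higher in RVO against control laser-treated eyes (log2 1.65, SE 0.25). Lair1, an inhibitory collagen receptor, fell by 0.91 on the log2 scale (SE 0.18) and Sirpa, which binds the CD47 signal, by 0.30 (SE 0.07). The call of Lair1 was lost without RVO pool 3 or untreated pool 1 or 3 (adjusted p between 0.0108 and 0.0121), and that of Sirpa without any 1 pool other than RVO pool 2 (adjusted p between 0.0160 and 0.0386). The call of Sirpa was also lost with scaling by library size alone (log2 -0.09), which moved the median of all genes by 0.22. Trem3, the neighbour of Trem1, had 0 counts in the untreated pools, 2, 1 and 1 in control laser-treated and 14, 6 and 9 in RVO pools, too few to be tested.

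Fc receptors that signal through the Fcer1g chain were split. After RVO, Fcgr4 rose to 14.9 times its untreated level (95% counting interval 6.26 to 46.7), Fcgr1 rose 3.72-fold and the inhibitory Fcgr2b, which does not use the chain, 5.73-fold. Fcgr3 fell by 0.77 on the log2 scale (SE 0.16) after RVO and by 1.70 (SE 0.11) in control laser-treated eyes. The first of these calls was lost without RVO pool 3 or any 1 untreated pool (adjusted p between 0.0124 and 0.0141). Fcgr3 measured 17.9 ± 0.2 CPM in untreated, 5.59 ± 0.60 in control laser-treated and 10.6 ± 2.1 CPM in RVO eyes.

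Of 22 tested kinases, scaffolds and phosphatases downstream of the ITAM, 16 rose and 2 fell after RVO, and 12 of 21 rose and 1 fell in control laser-treated eyes. Of all genes, 27.4% rose and 24.6% fell after RVO, and 27.2% and 25.2% in control laser-treated eyes. Syk, the kinase that docks on the phosphorylated ITAM, measured 1.11 ± 0.14 CPM in untreated, 3.28 ± 0.82 in control laser-treated and 6.93 ± 1.06 CPM in RVO eyes, a 6.16-fold rise after RVO (log2 2.62, SE 0.22). The Src-family kinase gene Fgr, with 0, 7 and 0 counts in untreated pools, led the list at log2 5.90 (SE 0.61), followed by the phosphoinositide 3-kinase adaptor Pik3ap1 (log2 2.77, SE 0.25). The complex that links Syk to NF-kB was divided. Bcl10 rose 2.21-fold and Card9 2.13-fold, whereas Malt1 fell 1.61-fold (log2 -0.69, SE 0.11). The call of Card9 was lost without any 1 pool other than RVO pool 2 (adjusted p between 0.0107 and 0.027). The inhibitory phosphatase Ptpn6 rose 3.18-fold. Nfatc1, a transcription factor of ITAM signalling, was the only gene of this list called in RVO against control laser-treated eyes, 1.97-fold higher. In that comparison 2.7% of all genes were called higher.

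Of 10 reported ligands, 6 rose and 0 fell in both comparisons with untreated eyes. Of all genes, 27.4% rose and 24.6% fell after RVO, and 27.2% and 25.2% in control laser-treated eyes. Vim, which encodes vimentin, rose 7.42-fold after RVO and 3.94-fold in control laser-treated eyes, and Lgals9, a galectin, 4.04-fold and 3.06-fold. Vim and Anxa5 were also higher in RVO than in control laser-treated eyes, 1.87-fold and 1.65-fold. Sap130, whose protein is a ligand of Mincle when released from dead cells, measured 65.1 ± 3.2 CPM in untreated, 58.0 ± 1.5 in control laser-treated and 65.7 ± 6.9 CPM in RVO eyes, and Apoe, a lipid carrier that binds Trem2, 521 ± 15, 482 ± 8 and 445 ± 77 CPM. Neither was called in any comparison.

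Genes linked to Trem2 in activated microglia and macrophages rose although Trem2 itself was not called. In untreated eyes Ctsb was at 521, Ctsd at 220.5, Cd9 at 49.7, Gpnmb at 37.7 and Spp1 at 30.3 CPM, against 3.54 CPM for Trem2. Lgals3, Lyz2, Itgax and Cst7 were below Trem2 there. Which cells of the retina gave these levels was not tested. Of 12 genes of this list that were tested, 11 rose in either comparison with untreated eyes, beside 27.4% and 27.2% of all genes. Lgals3, a galectin of phagocytes, measured 2.0 ± 0.84 CPM in untreated, 50.6 ± 9.9 in control laser-treated and 178 ± 23 CPM in RVO eyes, a log2 change of 6.49 (SE 0.23) after RVO. Itgax, an integrin of dendritic cells and activated microglia, had 1 count in each untreated pool and 79, 43 and 58 in RVO pools. Spp1, the secreted osteopontin, rose 6.51-fold and Csf1, a growth factor of macrophages, 10.7-fold. In RVO against control laser-treated eyes 6 of 13 were higher, beside 2.7% of all genes. They were Lgals3, Lyz2, Spp1, Cd63, Axl and Ctsd, between 1.72-fold for Ctsd and 3.51-fold for Lgals3.

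Genes of osteoclasts and cell fusion, the setting in which Siglec15 is best known, were mostly too low to test. Of 4 tested, 3 rose after RVO, beside 27.4% of all genes. Acp5, the tartrate-resistant acid phosphatase of osteoclasts, had 0, 1 and 4 counts in untreated and 48, 35 and 56 in RVO pools, and Mmp9, a matrix protease, rose 2.29-fold. Among cytokines made downstream of ITAM receptors, 8 of 9 tested rose after RVO, beside 27.4% of all genes. Of these 8, Il1b, Tnf, Csf3, Cxcl1, Cxcl2 and Ccl3 had at most 3 counts in each untreated pool. They passed the filter through the RVO pools, so their calls are no count of support. Cxcl2 and Cxcl1, which attract neutrophils, had 0 counts in untreated pools and were at least 73.5-fold and 29.8-fold higher after RVO. Ccl4 was the only cytokine called in RVO against control laser-treated eyes, 4.03-fold higher.

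**Figure D5:**
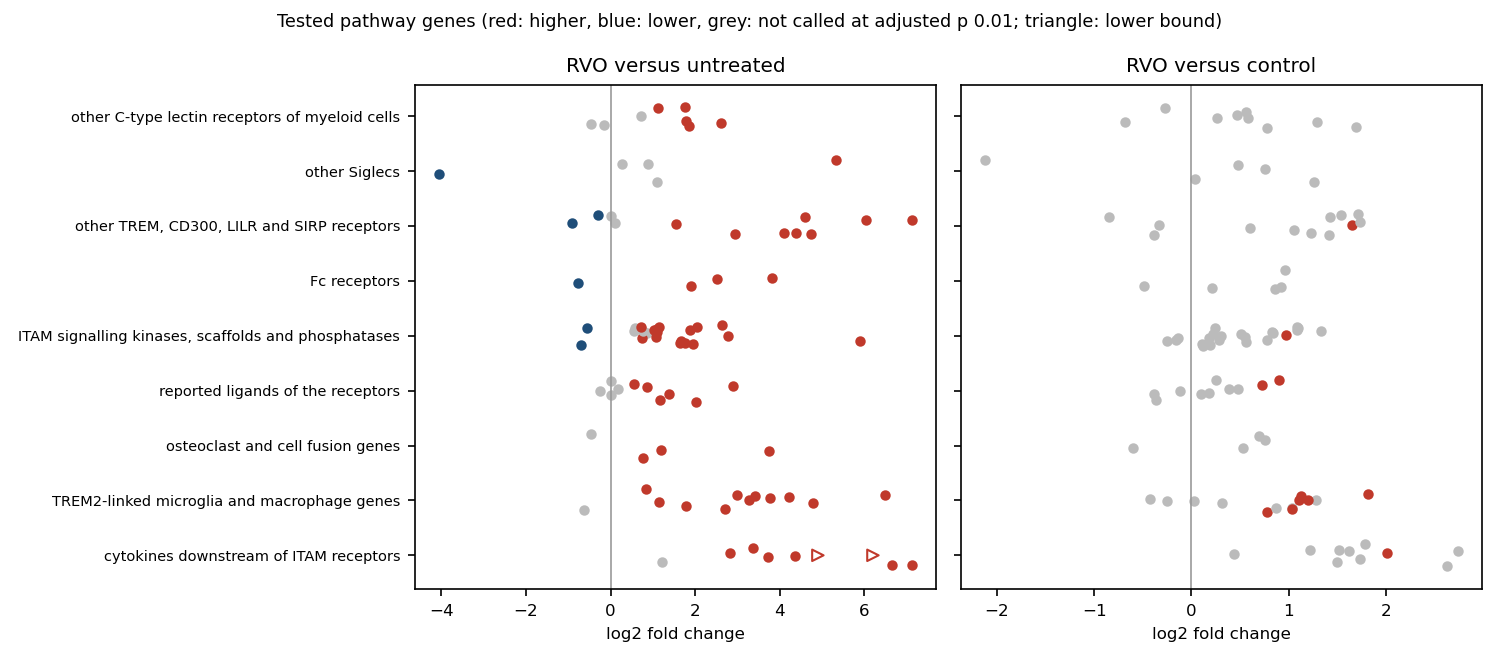
Log2 fold change (x axis) of every tested gene of the 9 pathway lists in RVO against untreated eyes (left) and RVO against control laser-treated eyes (right, with another x range). Red marks genes called higher, blue lower and grey not called at an adjusted p of 0.01, and triangles are lower bounds. On the left 61 of 86 genes are red or triangles, and on the right 11 of 90.

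As for the members, the count of pathway genes called between RVO and control laser-treated eyes turned on single pools. It was 11 with all pools, 47 without RVO pool 2, 1 without RVO pool 1 and 0 without RVO pool 3 or without any 1 of the 3 control laser-treated pools. Over all genes the calls numbered 563, 6257, 29 and 0 or 1 in the same order. No source used here describes the pools as separate experiments, so p-values measure the spread between these pools only.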

How the data were processed

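Poly(A) RNA of 9 retina pools had been sequenced with a stranded kit. The authors mapped reads with STAR 2.5.2b to GENCODE vM11 and counted them per gene with featureCounts (Subread 1.5.1); the deposited values are raw counts. Strand and multi-read settings of the counting were not given in the sources used here. Of 48679 names, 92 spike-in controls were removed.

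The members and the gene lists were chosen with earlier results of these data known. Groups were compared pair by pair with edgeR 4.0.16 (R 4.3.3): filterByExpr, TMM scaling, quasi-likelihood test, Benjamini-Hochberg adjustment over all genes tested, threshold 0.01. The standard error is the log2 fold change divided by the square root of F. Normalised CPM used TMM factors over the 9 pools. Where a reference group was at 0, folds are bounds against 3 counts per pool; with 1 to 3 counts per pool, ratios carry exact 95% counting intervals. Depth ran from 12377572 to 28993921 counts. The main fit of each pair of groups was first tested on simulated data, in which no gene of low count was changed. The alternative fits were not simulated. Replicate pools never agreed within sampling noise. Named genes were the members, the 2 highest rises and 2 largest falls called in each list, list genes whose role is described, marker genes, and the 3 genes most correlated with each member (log2 CPM, prior count 2). Trem3, Sap130 and Apoe were named for their role. Promoters came from RefSeq (GRCm38.p6), with 7 of 10 members matched. Alternatives included DESeq2 1.42.0, other scalings and filters, thinning, a replicate block and leaving out each pool.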

Additional observations from a re-analysis of the deposited data

How the results depend on the processing

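The counts of members called higher against untreated eyes (9 after RVO, 4 after the control laser) stayed within 1.5 times under every alternative, as did the counts of pathway genes called (67 and 49). The counts between RVO and control laser-treated eyes did not. Members called higher, 1 as reported, numbered 9 with DESeq2, 9 at an adjusted p under 0.05, 8 with all 9 pools in 1 fit, 7 without a filter on low counts, 4 with library size alone and 0 after thinning to the smallest total, where 8 members could be tested and Tarm1 and Siglec15 were too low. Pathway genes called, 11 as reported, numbered 37 with DESeq2, 35 without a filter, 33 with all 9 pools in 1 fit and 47 at an adjusted p under 0.05. Calls over all genes, 563 as reported, numbered 4043 with DESeq2, 5836 at an adjusted p under 0.05 and 3853 with all 9 pools in 1 fit. They numbered 3309 without a filter, 892 with library size alone and 797 after thinning. Leaving out single pools gave 0 to 9 members and 0 to 47 pathway genes, beside 0 to 6257 of all genes. With the replicate number as a block, 0 members and 0 pathway genes were called in this comparison by edgeR (9 members at an unadjusted p under 0.05, and 0 of all genes adjusted), while the counts against untreated eyes stayed within 1.5 times. In this comparison, deviations of RVO and control laser-treated pools 1, 2 and 3 from their group means correlated at -0.124, -0.138 and 0.065. With 3 pools per group, these values cannot show whether pools with the same number hold the same mice. No source used here says so, and the main fit has no block. The cause of the shifts in these counts was not tested.

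The sign of the log2 fold change of Trem2 turned without RVO pool 3 or untreated pool 3 in RVO against untreated eyes (-0.48 to 0.20 over the single pools left out), without control laser-treated pool 1 or untreated pool 3 (-0.35 to 0.34) and with library size alone (0.095) in control laser-treated against untreated eyes, and without RVO pool 3 in RVO against control laser-treated eyes (-0.43 to 0.073). That of Fcer1g turned without control laser-treated pool 2 in control laser-treated against untreated eyes (-0.0097 to 0.22). Depth limits Siglec15 and Tarm1, which had at most 3 counts in each control laser-treated pool.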
